A study of Mus musculus with 2 samples.

Results

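The phagocyte NADPH oxidase was followed through its genes Cybb, Cyba, Ncf1, Ncf4 and Rac2, taken by symbol: 5 of the 31253 features counted in single cells of the infarcted mouse brain. The cells came from tissue collected 3 days after transient middle cerebral artery occlusion, a stroke model in which the vessel is blocked and then reopened, and were sequenced as 1 library labelled Hilpda cKO, a conditional knockout, and 1 library labelled flox, its comparator, which the series' text calls wild type. Hilpda encodes a lipid droplet protein that inhibits fat breakdown. The cell type in which it was deleted, the promoter of the recombinase, the deleted exons, the strain, age and sex of the mice and the number of animals per library are not stated by the sources used here.

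The oxidase makes superoxide, the burst with which phagocytes kill microbes, and in the ischaemic brain it is known as a source of oxidative injury from microglia and infiltrating leukocytes. Cybb encodes gp91phox (NOX2), the membrane subunit that carries electrons across the membrane, and Cyba encodes p22phox, the partner that stabilises it. In a resting cell Ncf1 (p47phox, the organizer) and Ncf4 (p40phox, which binds phosphoinositides on the phagosome) wait in the cytosol. On activation they move to the membrane together with a Rac GTPase, which in neutrophils is largely Rac2.

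The 5 genes lie on 4 chromosomes of GRCm38 in the GENCODE annotation. Cybb (ENSMUSG00000015340) spans chrX:9435252-9487771, Cyba (ENSMUSG00000006519) chr8:122424776-122432930 and Ncf1 (ENSMUSG00000015950) chr5:134220053-134229625, all on the minus strand. Ncf4 (ENSMUSG00000071715) lies on the plus strand at chr15:78244801-78262580, and Rac2 (ENSMUSG00000033220) on the minus strand at chr15:78559167-78572783. The end of Ncf1 overlaps Gtf2ird2 on the opposite strand. Cyba lies within the span of Gm20388 (chr8:119910841-124345722), also on the opposite strand. Gm20388 is not among the features counted. Whether counting used strand is not stated by the sources used here. Gtf2ird2 itself had 435 UMIs in the library labelled cKO and 350 UMIs in the library labelled flox, against 8313 and 14846 UMIs of Ncf1.

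RefSeq promoter sequences were at hand for 3 of the 5 genes. They are shown because these genes share a phagocyte pattern while their base composition differs. The 250 bases before the RefSeq start hold 34% G and C for Cybb, 60% for Cyba and 54.4% for Ncf1. The windows are chrX:9469325-9469574 for Cybb, chr8:122432941-122433190 for Cyba and chr5:134229626-134229875 for Ncf1 (GRCm38.p6, minus strand). The Cybb window lies inside the GENCODE span given above, so its RefSeq start is not the start of that span. The windows of Cyba and Ncf1 lie outside their spans. The capitals mark a CCAAT box, found 56 bases before the RefSeq start of Cybb.
Cybb: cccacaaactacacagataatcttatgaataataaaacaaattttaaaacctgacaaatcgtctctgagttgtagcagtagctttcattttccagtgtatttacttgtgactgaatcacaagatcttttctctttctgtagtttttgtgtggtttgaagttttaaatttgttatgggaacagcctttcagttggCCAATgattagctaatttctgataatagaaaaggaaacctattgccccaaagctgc
Cyba: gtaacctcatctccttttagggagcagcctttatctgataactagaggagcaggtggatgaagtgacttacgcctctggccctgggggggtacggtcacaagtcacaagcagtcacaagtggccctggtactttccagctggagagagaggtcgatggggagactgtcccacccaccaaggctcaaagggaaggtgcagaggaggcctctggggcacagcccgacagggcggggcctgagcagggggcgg
Ncf1: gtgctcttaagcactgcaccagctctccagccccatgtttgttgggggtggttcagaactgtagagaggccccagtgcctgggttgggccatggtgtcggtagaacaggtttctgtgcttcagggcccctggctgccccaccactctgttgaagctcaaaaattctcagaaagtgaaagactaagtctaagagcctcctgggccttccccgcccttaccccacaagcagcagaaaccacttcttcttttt
Each window was searched on both strands for CCAAT, for the core GAGGAA bound by the myeloid factor PU.1, and for the TATA box TATAAA. None of these letters beyond the Cybb match occurred in the 3 windows. Shorter or variant forms of the motifs were not searched for, so a window without a match may still hold them. Of 32851 mouse promoter windows of the same length, 33.8% held CCAAT, 23.3% held GAGGAA and 12.4% held TATAAA, and the match is a description of the letters with nothing read from it about a factor.

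After filtering, 6984 cells of the library labelled cKO and 8065 cells of the library labelled flox were kept, with a median of 8741 and 6997 UMIs. UMIs are unique molecular identifiers, each marking 1 captured molecule. The cells formed 30 clusters, of which 29 were named from marker genes into 16 classes, and 28 and 23 cells stayed unnamed. In every class all of its markers were detected in both libraries. The 5 phagocyte classes held 1563 and 2315 microglia-like, 3057 and 3611 monocyte or macrophage-like, 188 and 187 border-associated macrophage-like, 255 and 279 dendritic cell-like and 298 and 201 neutrophil-like cells (cKO label first in each pair). Hilpda itself went against the label in part: it stood at 269 CPM in the library labelled cKO and 473 CPM in the library labelled flox in macrophage-like cells and at 33.6 and 202 CPM in neutrophil-like cells, but at 223 and 100 CPM in microglia-like cells, 129 and 70.5 CPM in border-associated macrophage-like cells and 183 and 122 CPM in dendritic cell-like cells. In these last 3 of the 5 phagocyte classes it was thus higher under the cKO label, with intervals that excluded equality. The same held in T or NK cell-like cells (360 and 189 CPM) and pericyte-like cells (238 and 144 CPM). It also held, on few UMIs under the flox label, in astrocyte-like (63.8 and 24.8 CPM), choroid plexus-like (24.9 and 8.33), ependymal-like (50.2 and 12.1), fibroblast-like (117 and 70.4) and neuroblast-like cells (63.3 and 5.12). Over all kept cells Hilpda was lower under the cKO label, at 214 and 273 CPM. A transcript-end tag outside the deleted part would not register the deletion, and the sources used here do not say where the deletion lies, so these counts do not check the labels. Of the barcodes, 56 occurred in both libraries. With 1 library per label there is no replicate check and no test. Levels are in CPM, the UMIs of a gene in the summed cells of a class scaled by all UMIs of those cells, and intervals are 95% intervals that cover counting error only.

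All 5 subunit genes were concentrated in the phagocyte classes of both libraries. These classes held 97.2% of the Cybb UMIs of kept cells in the library labelled cKO and 97.995% in the library labelled flox, and the corresponding shares were 96.4% and 97.8% for Cyba, 97.8% and 98.5% for Ncf1, 97.7% and 98.1% for Ncf4, and 96.95% and 97.6% for Rac2. The same classes held 82.6% of all UMIs of kept cells in the library labelled cKO and 87.6% in the library labelled flox, the share that a gene at an even level would have. By the median class, all 5 were at least 4-fold higher in phagocyte classes than in the 7 brain and vessel classes of at least 50 cells in that library, which included fibroblast-like cells under the cKO label and oligodendrocyte precursor-like cells under the flox label. That is a step that 10.3% of the genes measured made in the library labelled cKO and 11.5% in the library labelled flox. For Ncf4 in the library labelled flox, where the middle brain or vessel class had 0 UMIs, this is a bound against a floor of 3 counts. Rac2 shows the step: its medians were 494 against 27.6 CPM in the library labelled cKO and 428 against 16.4 CPM in the library labelled flox, and for Ncf1 they were 155 against 15.5 CPM and 263 against 12.3 CPM. When the lowest phagocyte class was set against the highest other class, Ncf1 and Rac2 still differed at least 4-fold in both libraries, where the share over all genes was 0.565% and 0.905%. Ncf1 was 6.01-fold apart by this measure in the library labelled cKO and 13.3-fold in the library labelled flox. Rac2 was 5.97-fold and 7.45-fold apart. Classes under 50 cells were not part of this measure. In the 40 ependymal-like cells labelled flox Ncf1 stood at 68.8 CPM, on 17 UMIs. The lowest phagocyte class there had 236 CPM, less than 4-fold above that. With marked doublets kept the library labelled flox no longer passed: Ncf1 was 3.75-fold and Rac2 2.68-fold apart there, against 71 neuroblast-like cells.

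Cybb, the electron-carrying subunit, was highest in monocyte or macrophage-like cells among the phagocyte classes, at 563 CPM (interval 554 to 571, 17801 UMIs) in the library labelled cKO and 653 CPM (644 to 662, 20020 UMIs) in the library labelled flox. Border-associated macrophage-like cells, the resident macrophages of meninges and vessel walls, followed with 432 and 426 CPM, and dendritic cell-like cells with 428 and 518 CPM. The dendritic cell-like cells held macrophage markers at 26.3% and 38.3% of their summed level in macrophage-like cells, 10 of 10 detected in both libraries, and the part of those UMIs in their Cybb level was not tested. The intervals of these classes overlapped in the library labelled cKO but not in the library labelled flox. Neutrophil-like cells had 173 CPM (135 to 218) in the library labelled cKO and 235 CPM (178 to 305) in the library labelled flox. Microglia-like cells were the lowest phagocyte class, with 139 and 151 CPM, far below macrophage-like cells, and in the library labelled cKO their interval overlapped that of neutrophil-like cells. With each cell gated by its own markers the neutrophil-like cells were the lowest instead, at 180.002 and 207 CPM, and the microglia-like cells had 257 and 299.86 CPM. In the 19 and 31 B cell-like cells Cybb reached 854 CPM (632 to 1129) and 819 CPM (608 to 1079), on 49 and 50 UMIs. These small clusters also held macrophage markers at 63.4% and 49.8% of their summed level in macrophage-like cells, 6 of 10 and 5 of 10 markers being detected, and the part of those UMIs in the Cybb level was not tested.

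Cyba, the stabilising partner, had a flatter profile among phagocytes than Cybb and, of the 5 subunits, the highest level in endothelial-like cells relative to its level over all cells. In the library labelled cKO it stood at 148 CPM in macrophage-like, 103 CPM in border-associated macrophage-like, 99.0 CPM in microglia-like, 81.7 CPM in neutrophil-like and 75.9 CPM in dendritic cell-like cells. In the library labelled flox the same classes had 649, 411, 397, 306 and 318 CPM. The macrophage-like class thus led in both libraries, the intervals of border-associated macrophage-like and microglia-like cells overlapped, as did those of neutrophil-like and dendritic cell-like cells, and each of these classes was lower in the library labelled cKO. Outside the phagocytes, endothelial-like cells had 18.8 CPM (14.8 to 23.6) in the library labelled cKO and 103 CPM (91.4 to 115) in the library labelled flox. That was 17.4% and 21.6% of the level over all cells, whereas the phagocyte genes Tyrobp, Lyz2, Ctss and C1qb stood in endothelial-like cells at 3.44 to 4.65% of theirs in the library labelled cKO and 4.66 to 6.17% in the library labelled flox. Cybb at 4.09% and 5.78%, Ncf1 at 4.23% and 5.41% and Rac2 at 2.48% and 4.36% of their all-cell levels lay in or near that range. Ncf4 was at 2.12% on 3 UMIs in the library labelled cKO and at 11.2% on 13 UMIs in the library labelled flox. The part of stray phagocyte RNA in these levels was not tested. In fibroblast-like cells Cyba was at 22.7% and 33.9%, on 30 and 39 UMIs, where those 4 phagocyte genes were at 7.55 to 13.1% and 9.31 to 20.2%. Endothelial-like cells were thus not alone. Cyba was at 48.6% and 41.5% in T or NK cell-like cells, where Tyrobp was at 41.4% and 38.6%. In ependymal-like cells Cyba was at 30.9% and 32.2% and Tyrobp at 24.3% and 26.4%. In pericyte-like cells Cyba was at 34.1% and 20.3% and Tyrobp at 19.9% and 8.17%. A further gene of activated phagocytes, Spp1, was at 2.26% and 3.10% in endothelial-like cells but at 78.2% and 71.2% in fibroblast-like cells. Of the other membrane oxidases that can pair with p22phox, Nox4 had 9.21 CPM in the library labelled cKO and 24.6 CPM in the library labelled flox in pericyte or smooth muscle cell-like cells, and at most 1.42 CPM in the other compared classes.

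Ncf1, the organizer, was highest in neutrophil-like cells, at 594 CPM (522 to 672) in the library labelled cKO and 1053 CPM (928 to 1191) in the library labelled flox. The other phagocyte classes were close to each other, between 135 and 169 CPM in the library labelled cKO and between 236 and 280 CPM in the library labelled flox. Microglia-like cells had 142 and 263 CPM and macrophage-like cells 135 and 236 CPM, with intervals that overlapped in the library labelled cKO and not in the library labelled flox, so the large step that Cybb showed between these classes was not seen. Ncf4, the p40phox subunit, followed the neutrophils too, with 173 CPM (135 to 218) in the library labelled cKO and 211 CPM (157 to 277) in the library labelled flox. It stood at 50.4 and 56.7 CPM in macrophage-like cells, 37.6 and 43.8 CPM in dendritic cell-like cells, 29.5 and 32.5 CPM in microglia-like cells and 30.7 and 21.04 CPM in border-associated macrophage-like cells. Macrophage-like cells were above microglia-like cells in both libraries, with intervals that did not overlap. Ncf4 had 0 UMIs in the astrocyte-like, choroid plexus-like, fibroblast-like, oligodendrocyte precursor-like and pericyte-like cells labelled flox, in the ependymal-like cells labelled cKO and in neuroblast-like cells of both labels. In the flox-labelled astrocyte-like cells the floor of 3 counts corresponds to 10.6 CPM, and the interval reaches 13.1 CPM.

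Rac2, the GTPase, was the subunit most shared with lymphocytes. Neutrophil-like cells had 1949 CPM (1817 to 2088) in the library labelled cKO and 1867 CPM (1699 to 2048) in the library labelled flox, and T or NK cell-like cells 1596 CPM (1372 to 1845) and 1475 CPM (1266 to 1707). Among the other phagocytes the order was dendritic cell-like (551 and 495 CPM), border-associated macrophage-like (494 and 428 CPM), microglia-like (429 and 352 CPM) and macrophage-like cells (322 and 267 CPM), the intervals of the first pair overlapping in both libraries. Rac2 was thus lowest in the phagocyte class where Cybb was highest. Its ubiquitous relative Rac1 differed less between classes, from 476 to 728 CPM in the library labelled cKO and from 491 to 613 CPM in the library labelled flox over the 5 phagocyte classes. There were 2.68 and 3.10 Rac2 UMIs per Rac1 UMI in neutrophil-like cells, against 0.547 and 0.470 in macrophage-like cells.

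**Figure D1:**
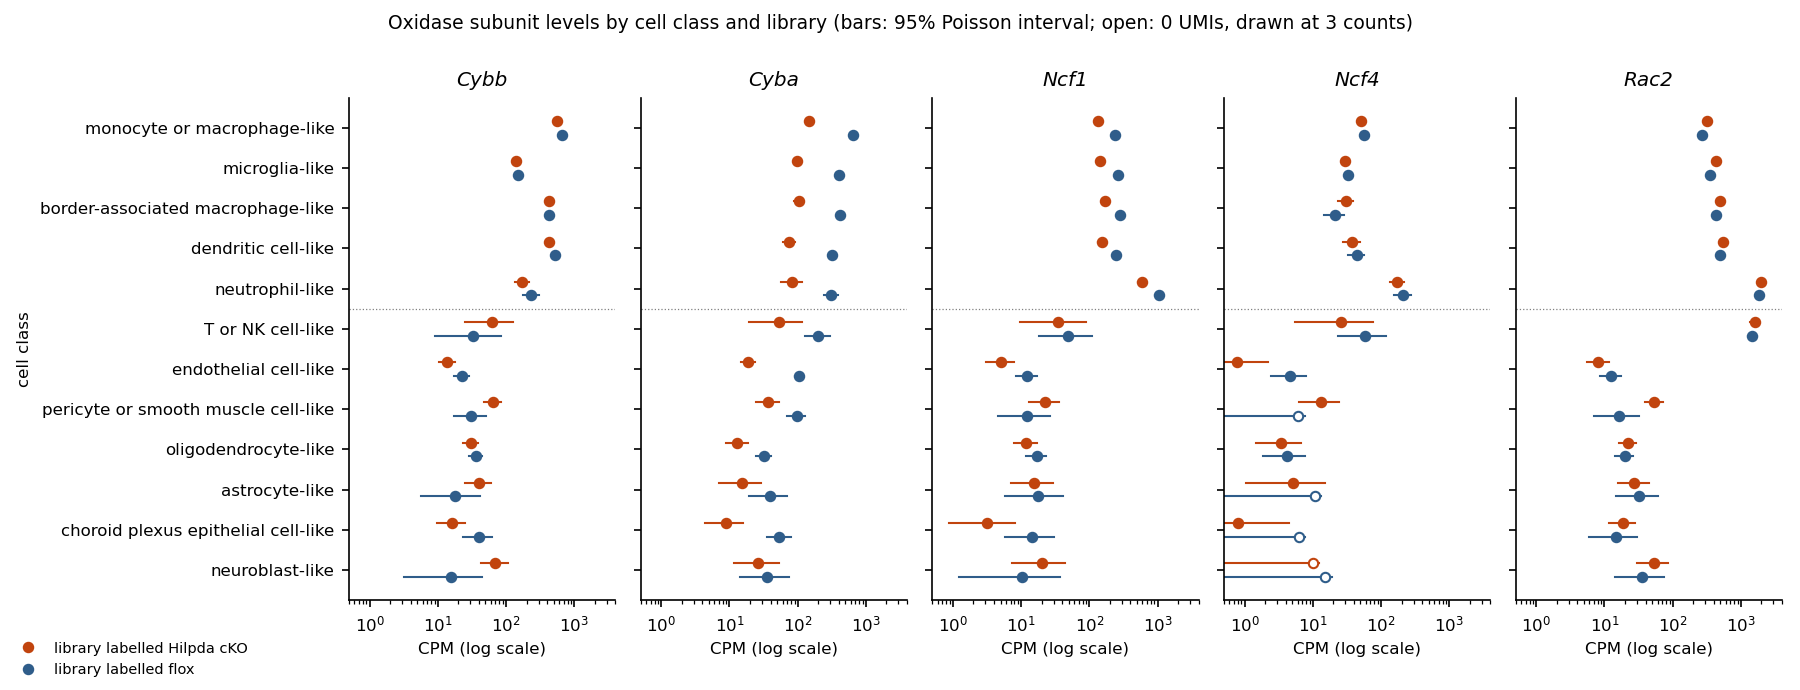
Level of each subunit gene in CPM (log axis) in 12 cell classes, with the library labelled cKO above that labelled flox in each row, bars for 95% Poisson intervals and open points for 0 UMIs drawn at 3 counts. Cybb and Cyba are highest in monocyte or macrophage-like cells among the phagocyte classes above the dotted line, Ncf1, Ncf4 and Rac2 are highest in neutrophil-like cells, and Cyba keeps 103 CPM in endothelial-like cells of the library labelled flox.

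The mix of subunit transcripts therefore differed by phagocyte. Capture may differ between genes, so these ratios are compared across classes, not read as amounts. Per Cybb UMI, neutrophil-like cells held 3.43 Ncf1 UMIs in the library labelled cKO and 4.47 in the library labelled flox, microglia-like cells 1.02 and 1.74, and macrophage-like cells 0.239 and 0.361. For Rac2 the values were 11.3 and 7.93 in neutrophil-like, 3.08 and 2.33 in microglia-like and 0.573 and 0.409 in macrophage-like cells. Between the cytosolic subunits, macrophage-like cells had the most Ncf4 per Ncf1 UMI of the phagocyte classes, 0.374 and 0.241, while neutrophil-like cells had 0.291 and 0.200 and microglia-like cells 0.208 and 0.124. Neutrophil-like cells held few RNA molecules, with a median of 1299.5 UMIs in the library labelled cKO and 1060 in the library labelled flox, and macrophage markers stood in them at 18.6% and 27.1% of their level in macrophage-like cells, 9 and 10 of 10 markers being detected. The part of such RNA in their Cybb level was not tested.

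To compare cells at equal depth, every cell was thinned to 1000 UMIs and shallower cells were left out. Cybb was then seen in 40.4% of macrophage-like cells in the library labelled cKO (interval 38.6 to 42.2, 3019 cells, 38 left out) and in 45.2% in the library labelled flox (43.5 to 46.8, 3578 cells, 33 left out). In microglia-like cells it was seen in 10.9% and 10.96%. Unthinned, the macrophage-like class had 88.2% and 90.4% and the microglia-like class 43.0% and 38.7%. Oligodendrocyte-like cells, in which the gene is not known as a marker, gave 1.68% and 2.50% thinned and 7.52% and 10.6% unthinned, at median depths of 4950 and 4496.5 UMIs against 10001 and 7929 in macrophage-like cells. Endothelial-like cells gave 1.96% and 1.78% thinned.

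Rac2 and Ncf1 were seen in many neutrophil-like cells even at this depth. Rac2 was seen in 82.4% of thinned neutrophil-like cells in both libraries (233 and 119 cells, 65 and 82 left out) and Ncf1 in 45.9% (39.4 to 52.6) and 62.2% (52.8 to 70.9). Unthinned, Rac2 was seen in 89.9% and 82.1% of them and Ncf1 in 48.7% and 65.7%. Cybb was seen in 8.15% and 7.56% of the thinned neutrophil-like cells, with intervals from 4.98 to 12.4% and from 3.52 to 13.9% that include its shares in microglia-like cells. Cyba differed more by label. It was seen in 13.4% of macrophage-like cells in the library labelled cKO and in 44.0% in the library labelled flox, and in 8.41% and 28.8% of microglia-like cells. Unthinned, those shares were 69.9% and 93.7% for the macrophage-like class and 59.3% and 78.7% for the microglia-like class.

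Several subunits were seen in the same cell most often in neutrophil-like cells. At 1000 UMIs, 3 or more of the 5 were seen in 13.3% of them in the library labelled cKO (9.22 to 18.4) and 27.7% in the library labelled flox (19.9 to 36.7). Macrophage-like cells had 5.23% and 12.4%, border-associated macrophage-like cells 4.52% and 10%, with intervals that overlapped in both libraries. Dendritic cell-like cells had 0.81% and 11.1%, and microglia-like cells 1.91% and 4.96%. The 16 B cell-like cells labelled cKO gave 6.25%, with an interval from 0.158 to 30.2%. The partners of the membrane unit, Cybb and Cyba, were seen together in 5.70% and 18.1% of macrophage-like cells and in 1.16% and 3.64% of microglia-like cells. Neutrophil-like cells did not lead for this pair, with 1.29% (0.266 to 3.72) and 3.36% (0.923 to 8.38). Border-associated macrophage-like cells had 3.95% and 13.3%, and dendritic cell-like cells 2.02% and 7.75%. In endothelial-like cells neither event occurred, 0 of 460 and 0 of 506 thinned cells. No cell of these classes had all 5 at this depth. Over all UMIs, 18.6% and 24.4% of macrophage-like cells and 10.4% and 11.4% of microglia-like cells did, but only 0.336% and 1.99% of the much shallower neutrophil-like cells.

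**Figure D2:**
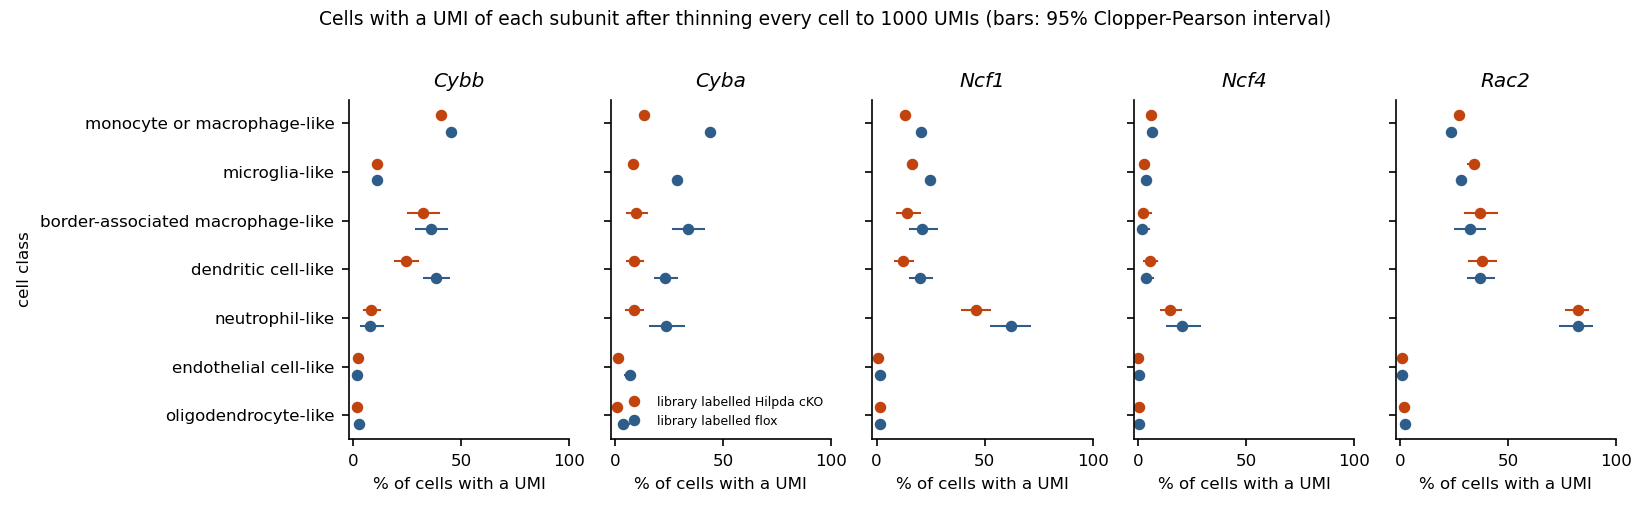
Share of cells (%) with at least 1 UMI of each subunit gene after thinning to 1000 UMIs, in 7 classes, with the library labelled cKO above that labelled flox and bars for 95% Clopper-Pearson intervals. Rac2 is seen in 82.4% of neutrophil-like cells in both libraries, Cybb in 40.4% and 45.2% of macrophage-like cells, and Cyba in 13.4% and 44.0% of macrophage-like cells.

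Among the 5 macrophage-like clusters, Cybb and Ncf4 were highest, and Cyba lowest, in a cluster that combined genes of recruited monocytes (Plac8, Ccr2) with genes of antigen presentation (Cd74, H2-Aa, H2-Ab1, H2-Eb1) among its 10 leading genes. The subunit genes had been kept out of the genes used for clustering. The cluster led by Plac8, Ccr2 and Cd74 had 1024 CPM of Cybb in the library labelled cKO and 1084 CPM in the library labelled flox. The clusters led by Fabp4, Pdpn and Mmp8 and by Gpnmb, Mgst1 and Fabp5 had 438 and 462 CPM and 427 and 476 CPM, the lowest of the 5 in both libraries. Ncf4 followed Cybb, with 93.2 and 104 CPM in the Plac8 cluster against 38.4 and 44.0 CPM in the Fabp4 cluster. Cyba ran the other way, with 107 and 413 CPM in the Plac8 cluster against 169 and 777 CPM in the Gpnmb cluster. Within a library the intervals of the Plac8 cluster did not overlap those of the Gpnmb and Fabp4 clusters for any of these 3 genes.

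Among the 6 microglia-like clusters, the one with the least Cybb had the most Ncf1. The cluster led by Siglech, Slc2a5 and P2ry12, genes of homeostatic microglia, had the lowest Cybb, at 66.1 CPM in the library labelled cKO and 38.5 CPM in the library labelled flox, and the highest Ncf1, at 273 and 420 CPM. Its Ncf1 interval overlapped that of the cluster led by Gpr84, Gpr34 and Arsb, at 237 and 394 CPM. In the cluster led by Mmp12, Cd5l and Lpl, Cybb stood at 134 and 180 CPM and Ncf1 at 116 and 210 CPM. In the cluster led by the interferon-induced genes Ifit3, Ifit2 and Ifit3b, which held 32 and 64 cells, Cybb reached 372 CPM (311 to 441) and 288 CPM (246 to 335), the highest of the microglia-like clusters. Across the 6 clusters Cybb varied 5.62-fold in the library labelled cKO and 7.47-fold in the library labelled flox, Ncf1 2.41-fold and 2.21-fold, and Rac2 1.33-fold and 1.47-fold. The lowest of these Cybb levels, in the Siglech cluster, were near those of brain classes. Neuroblast-like cells had 70.0 CPM in the library labelled cKO and choroid plexus-like cells 39.6 CPM in the library labelled flox. The part of stray RNA in the Cybb level of the Siglech cluster was not tested. The Siglech cluster held 254 of the 1563 microglia-like cells in the library labelled cKO and 666 of the 2315 in the library labelled flox, so the class levels above average over different mixes of clusters.

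Dendritic cell-like cells held a further contrast. The cluster led by Ccr7, Cacnb3 and Tbc1d4, genes of migratory dendritic cells, had 44 cells in the library labelled cKO and 40 in the library labelled flox. Its Rac2 was 145 and 114 CPM, against 626 and 542 CPM in the cluster led by Ifitm1, H2-Eb1 and H2-Ab1, and its Cybb was 169 and 200 CPM, against 476 and 558 CPM. Ncf4 had 0 and 1 UMI there. Ncf1 was at 202 and 386 CPM in the Ccr7 cluster, against 146 and 231 CPM, with intervals that overlapped in the library labelled cKO and not in the library labelled flox. Cyba was at 125 and 565 CPM, against 66.7 and 287 CPM. The subunits thus differed in sign between these 2 clusters, Cybb and Rac2 being lower and Cyba higher in the Ccr7 cluster.

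**Figure D3:**
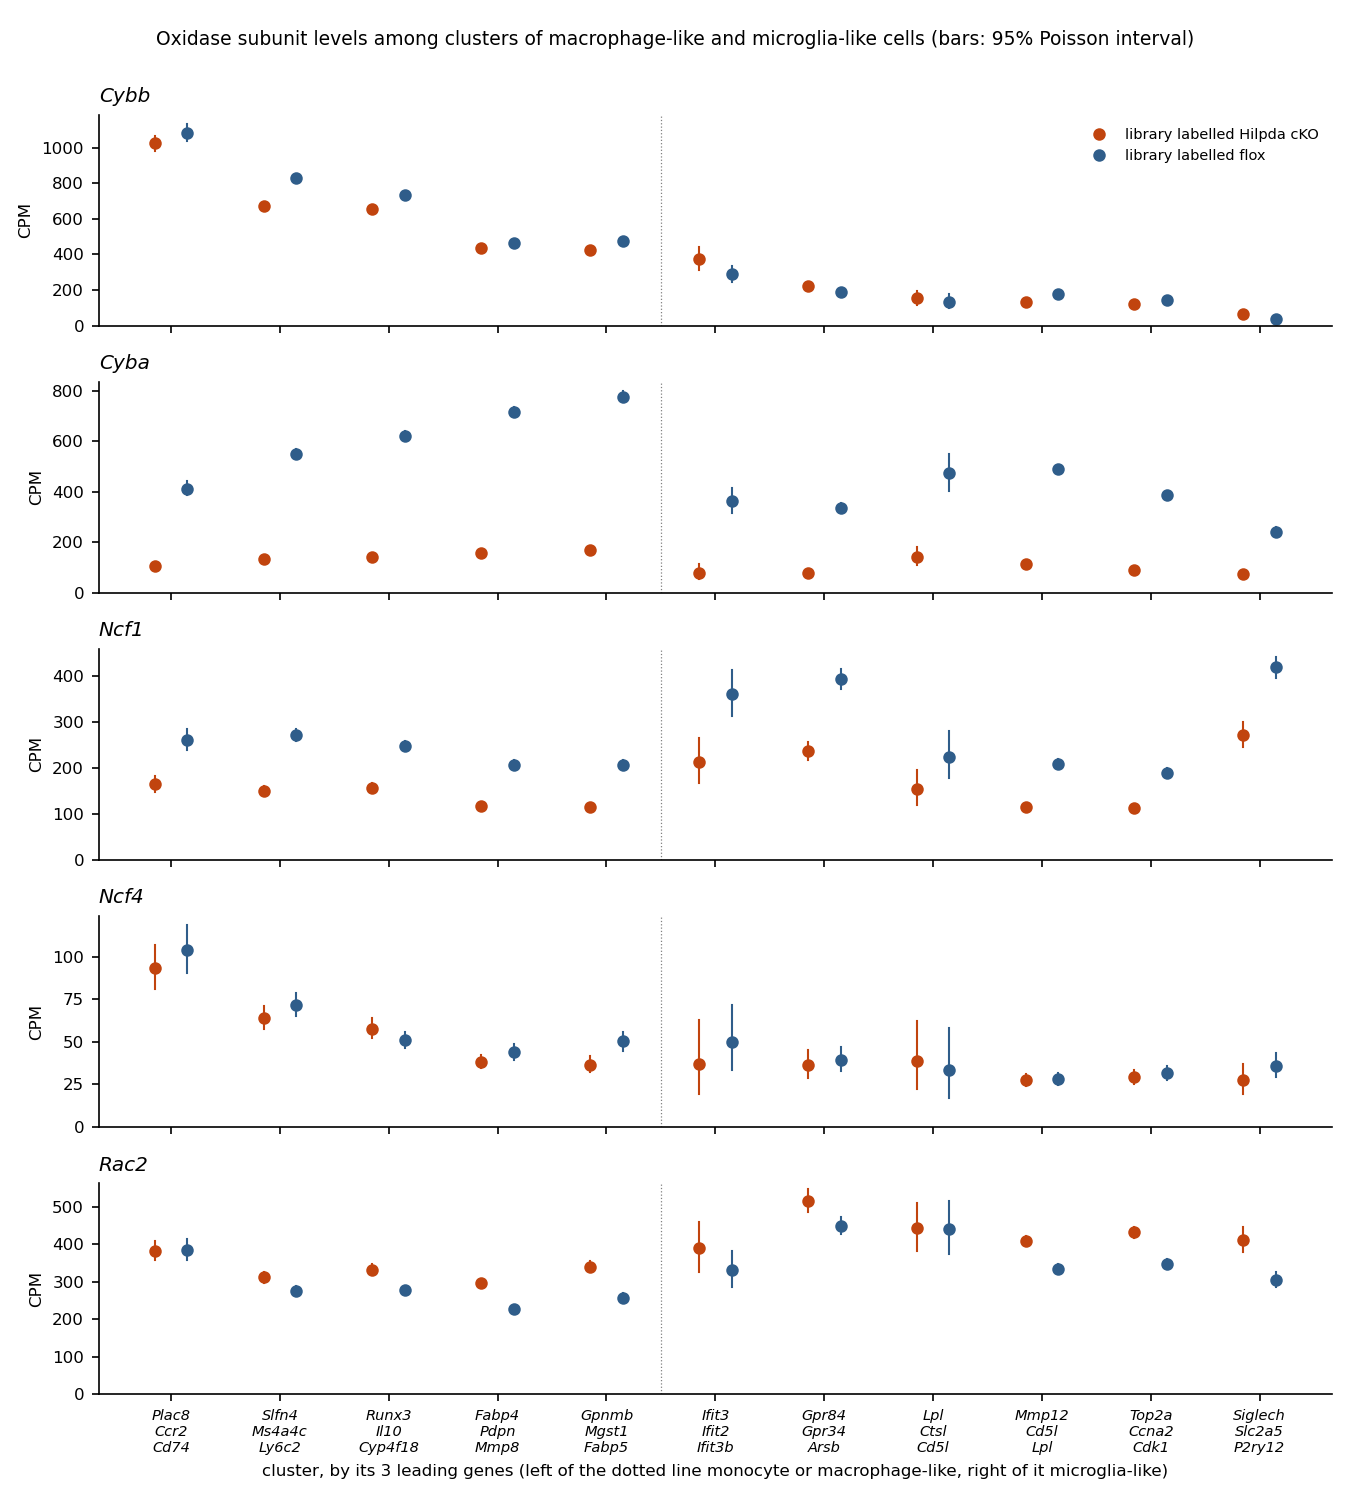
Level of each subunit gene in CPM (linear axis from 0) in 5 macrophage-like clusters (left of the dotted line) and 6 microglia-like clusters (right of it), each named by 3 leading genes, with the library labelled cKO left of that labelled flox and bars for 95% Poisson intervals. Cybb is highest in the Plac8 cluster (1024 and 1084 CPM) and lowest in the Siglech cluster (66.1 and 38.5 CPM), Ncf1 is highest in the Siglech cluster among those drawn, and Cyba is lower in the library labelled cKO in all 11.

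Between the libraries, Cyba was about 4-fold lower in the library labelled cKO in every phagocyte class, and no other subunit passed the size rule. To be called, a gene had to differ 2-fold or more with a counting interval that excludes equality, and to have 30 UMIs and 100 CPM or more under 1 of the labels. In macrophage-like cells 1 of the 5 subunits was lower and 0 were higher, where 3.36% and 0.0569% of the genes with enough counts were called in these directions. In microglia-like cells 1 was lower and 0 higher, against 3.95% and 0.229% of genes. The same count of 1 lower and 0 higher held in border-associated macrophage-like cells (3.62% and 0.324% of genes), dendritic cell-like cells (2.71% and 0.108%), neutrophil-like cells (3.86% and 2.01%) and endothelial-like cells (4.69% and 0.527%). Only 4 of the 5 subunits had enough counts in the macrophage-like, microglia-like, border-associated macrophage-like and dendritic cell-like classes. All 5 had enough in neutrophil-like cells, but only 1, Cyba, in endothelial-like cells. In oligodendrocyte-like cells (3.53% and 0.145%) and pericyte or smooth muscle cell-like cells (4.62% and 2.56%) no subunit was called in either direction, and none reached the minimum counts there.

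The log2 ratio of Cyba, cKO label over flox label, was −2.13 (−2.18 to −2.08) in macrophage-like cells and −2.003 (−2.07 to −1.93) in microglia-like cells. It was −1.997 in border-associated macrophage-like, −2.07 in dendritic cell-like, −1.90 in neutrophil-like and −2.45 in endothelial-like cells. Oligodendrocyte-like cells, at 31 and 69 UMIs, gave −1.27, or −0.43 with equal weight per cell, and pericyte-like cells, at 28 and 47 UMIs, gave −1.39. The sign was thus the same in all 8 compared classes, and within each of the 11 macrophage-like and microglia-like clusters it lay between −2.20 and −1.73. The few B cell-like cells, with 8 Cyba UMIs in each library and 139 and 131 CPM, did not show it, and neuroblast-like cells had 8 and 7 UMIs, at 26.7 and 35.9 CPM with wide intervals that overlapped. With the median ratio of the remaining compared classes subtracted, Cyba was at −0.13 in macrophage-like cells and at −0.01 in microglia-like cells.

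Cyba is also the subunit with the most GC-rich transcript end. The last 500 nucleotides of its transcript hold 58.8% G and C, and 1.45% of the tested genes reach that share, against a median of 43%. Ncf4 has 53.2%, Rac2 51.6%, Ncf1 50% and Cybb 35.2%. In macrophage-like cells the 56 other genes within 2 points of Cyba had a median log2 ratio of −0.67 (quartiles −1.27 and 0.02), and in microglia-like cells 49 such genes had −0.74. With the median of its GC bin subtracted, Cyba stood at −1.73 in the macrophage-like class and −1.54 in the microglia-like class. The genes within 2 points of Ncf1 had a median of 0.12 in both classes. The part of base composition in the Cyba difference was not tested, and with 1 library per label a difference between libraries and one between genotypes cannot be told apart.

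**Figure D4:**
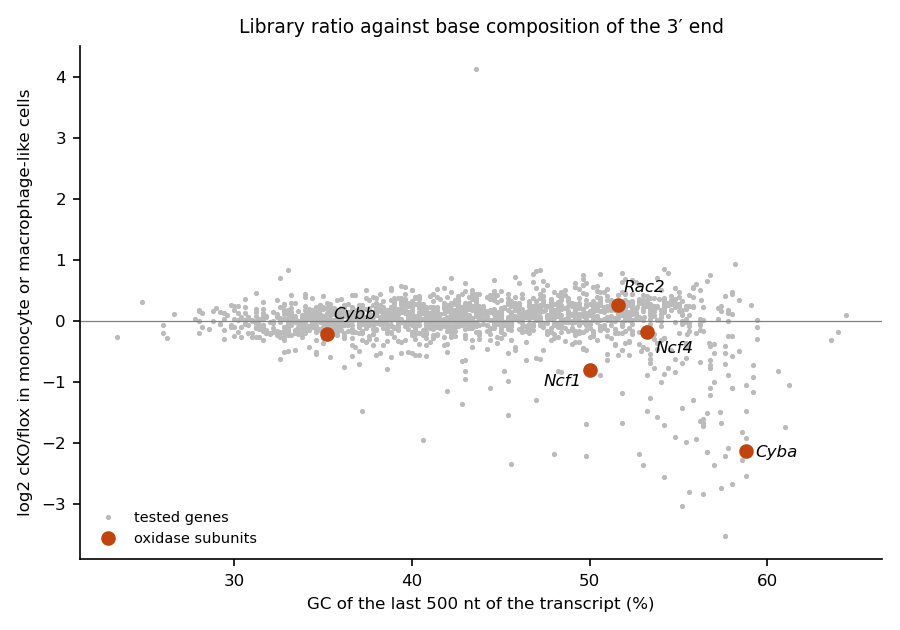
Log2 ratio of the library labelled cKO over that labelled flox in monocyte or macrophage-like cells against the GC share (%) of the last 500 nucleotides of the transcript, with 1 grey point per gene that met the minimum counts and the 5 subunit genes in colour; Ncf4, which did not meet them, is drawn too. Cyba lies at 58.8% GC and −2.13, Ncf1 at 50% and −0.81, and Cybb, Ncf4 and Rac2 between −0.21 and 0.27.

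Ncf1 was lower in the library labelled cKO by less than the 2-fold of the rule in every phagocyte class. Its log2 ratio was −0.81 (−0.86 to −0.75) in macrophage-like, −0.89 (−0.95 to −0.83) in microglia-like, −0.73 in border-associated macrophage-like, −0.68 in dendritic cell-like and −0.83 in neutrophil-like cells. All 11 macrophage-like and microglia-like clusters gave a negative value, between −0.86 and −0.54, with intervals that excluded equality. Endothelial-like cells, where Ncf1 had 20 and 34 UMIs, gave −1.25.

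Cybb and Rac2 differed little between the libraries, with opposite signs in these classes. Cybb was at −0.21 (−0.24 to −0.19) in the macrophage-like class and −0.12 (−0.20 to −0.05) in the microglia-like class. Rac2 was at 0.27 (0.23 to 0.31) and 0.28 (0.24 to 0.33). Ncf4 was at −0.17 and −0.14 and did not reach 100 CPM in either class. For Rac2, 8 of the 11 clusters had intervals above equality and 0 below it, while for Cybb 6 were below it, 3 above it and 2 included it. When each microglia-like cell had equal weight, the Cybb ratio in that class was 0.22, so its sign there depends on the weighting.

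In pericyte or smooth muscle cell-like cells the subunits other than Cyba had more UMIs in the library labelled cKO, though few in all. Cybb had 64.5 CPM (49 UMIs) in the library labelled cKO and 30.8 CPM (15 UMIs) in the library labelled flox, a log2 ratio of 1.07 (0.21 to 2.01). Rac2 had 53.95 and 16.4 CPM, on 41 and 8 UMIs. Most of the phagocyte genes used as yardsticks ran the same way. Tyrobp stood at 455 CPM in the library labelled cKO and 173 CPM in the library labelled flox, C1qb at 726 and 271 CPM and Ctss at 1265 and 643 CPM, but Lyz2 at 818 and 824 CPM. The summed microglia markers stood at 522 and 193 CPM, 9 of 9 and 8 of 9 detected, and the summed macrophage markers at 1104 and 817 CPM, 9 of 10 and 10 of 10 detected. The part of phagocyte RNA in these values was not tested. With equal weight per cell the Cybb ratio in this class was −1.52.

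**Figure D5:**
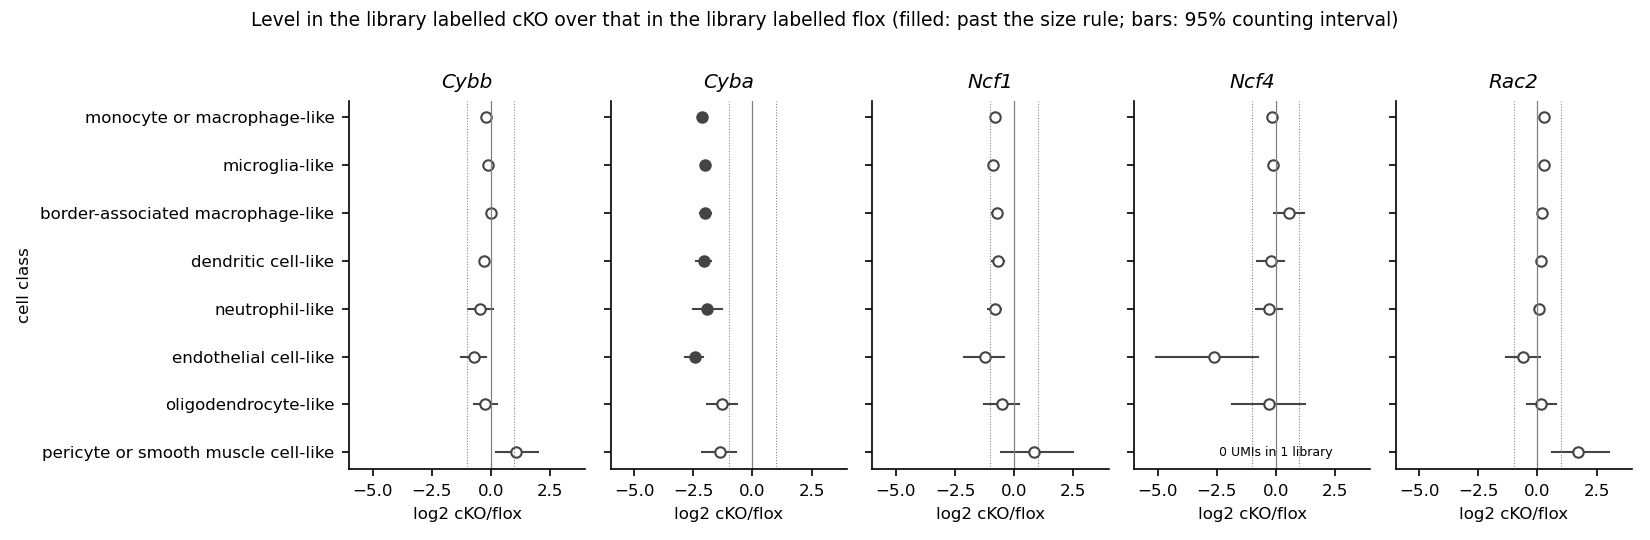
Log2 ratio of the library labelled cKO over that labelled flox for each subunit gene in the 8 compared classes, with bars for 95% counting intervals, dotted lines at 2-fold and filled points for values past the size rule. Cyba is filled in 6 classes, between −2.45 and −1.90, Ncf1 lies between −0.89 and −0.68 in the 5 phagocyte classes, and the intervals widen in the lower classes, where counts are few.

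The other genes of the pathway mostly differed less than 2-fold. Of 11 other oxidases and partners, 3 had enough counts in each of the microglia-like and macrophage-like classes, 0 were called, where 3.95% of all genes tested were lower and 0.229% higher in the microglia-like class and 3.36% and 0.0569% in the macrophage-like class. The median log2 ratio was −0.04 in microglia-like and 0.00 in macrophage-like cells, beside 0.05 and 0.06 over all genes tested. Rac1, at 589 CPM in the library labelled cKO and 569 CPM in the library labelled flox in macrophage-like cells, and Rap1a, a GTPase that copurifies with the membrane unit, at 211 and 210.5 CPM, were close to equal. Cybc1, the chaperone of the membrane unit, had 39.0 and 41.8 CPM. Nox4 and Noxo1, the organizer of another oxidase, had under 1 CPM in macrophage-like cells.

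Of 19 kinases, exchange factors and regulators, 9 had enough counts in macrophage-like cells, 1 was lower and 0 were higher, and in microglia-like cells 2 of 11 were lower and 0 higher, beside 3.36% and 3.95% of all genes lower. The medians were −0.13 and −0.23. Arhgdia, which encodes the inhibitor that holds Rac in the cytosol, was the gene lower in both. It had 262 CPM in the library labelled cKO and 542 CPM in the library labelled flox in macrophage-like cells and was called lower in 7 of the 8 compared classes, pericyte-like cells excepted. Its transcript end holds 61.2% G and C. With TMM scaling it was called lower in 4 classes, the macrophage-like class among them, and after the GC subtraction in 1, the neutrophil-like class. The leukocyte form Arhgdib was at 527 and 416 CPM. Hvcn1, the proton channel that balances the charge the oxidase moves, was called lower in microglia-like cells, though not with TMM scaling, after the GC subtraction, with marked doublets kept or with gated cells, at 52.8 CPM in the library labelled cKO and 106 CPM in the library labelled flox, and had 37.0 and 67.8 CPM in macrophage-like cells. In those cells Pak2 stood at 233 and 217 CPM, Prkcd, a kinase of p47phox, at 147 and 171 CPM, Akt1 at 137 and 138 CPM and Dock2, an exchange factor for Rac, at 121 and 133 CPM.

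Of 10 receptors that trigger the burst, 8 had enough counts in both the macrophage-like and the microglia-like class and 0 were called, beside the same 3.36% and 3.95% of all genes lower, with medians of 0.01 and 0.04. Fcer1g, the signalling chain of Fc receptors, had 3955 and 3943 CPM in macrophage-like cells, Itgam (CD11b) 735 and 849 CPM, C5ar1, the receptor of complement C5a, 721 and 695 CPM, Itgb2 627 and 567 CPM, Fcgr2b 587 and 582 CPM and Fcgr3 512 and 476 CPM (cKO label first). Fcgr3 and Itgam were called higher in pericyte-like cells, where Tyrobp, C1qb and Ctss were higher too. Of 6 myeloid transcription factors, 5 had enough counts in both classes and 0 were called, against the same shares of all genes, with medians of −0.32 and −0.49. In macrophage-like cells Cebpb stood at 508.5 CPM in the library labelled cKO and 936 CPM in the library labelled flox, Cebpa at 261 and 355 CPM, Irf8 at 175 and 205 CPM, Spi1, which encodes PU.1, at 234 and 265 CPM, and Runx1 at 105 and 131 CPM. Cebpe was at most 0.196 CPM in every class except flox-labelled neutrophil-like cells, where it had 16.5 CPM.

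Across 11 classes in 2 libraries, 22 points that share library and depth, the subunits had profiles alike but not equal. The Pearson correlation of log2(CPM + 10) was highest between Ncf1 and Rac2 (0.97) and lowest between Cyba and Ncf4 (0.67). Of 5394 genes compared, those most like Cybb were Gpr65 (0.95), Unc93b1, Wfdc17, Csf2rb2 and Ptger4. Those most like Ncf1 were Nfam1 (0.98), Ptpn6, Sla, Rac2 and Ptafr, those most like Rac2 were Ptpn6 (0.99), Sla, Cd33, Plek and Ptafr, and those most like Ncf4 were Igsf6 (0.96), Il1rn, Ptafr, Ccrl2 and Tnfaip3. With a minimum of 50 CPM, 3 of the 5 remained for Ncf1 and 3 for Ncf4, and 5 for the other subunits. Ptafr, the receptor of platelet-activating factor, stood in 3 of these lists. Among those most like Cyba were Ftl1 (0.92), Arpc4, Erp29 and Fermt3, and neither Cybb nor Cyba shared a gene of its list with another subunit. The Cyba points include its difference between the libraries.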

How the data were processed

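Single cells of the infarcted brain were captured and barcoded on BD Rhapsody, per the labels' protocols. The authors deposited, for each library, a matrix of UMI counts per gene and cell, which had not been normalized. Per the submitters' processing notes the tools were CASAVA 1.8, STARsolo and Seurat and the genome mm10, while the annotation and counter settings are not stated by the sources used here. The libraries held 7382 barcodes with 70665440 UMIs (labelled cKO) and 8593 barcodes with 67864602 UMIs (labelled flox).

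Barcodes had at least 500 UMIs. Those with under 200 genes (25 and 52) or over 25% mitochondrial UMIs (242 and 274) and marked doublets (142 and 210, expected rate 6%) were left out. Cells were clustered without the 5 subunit genes, a further oxidase gene, Hilpda and mitochondrial, ribosomal protein, haemoglobin and sex-chromosome marker genes (scanpy 1.11.5; 2000 variable genes, 30 components, 20 neighbours, Leiden resolution 1), and clusters were named from marker lists. UMIs were summed per class and library and given as CPM with exact Poisson intervals. Ratios have exact conditional intervals, shares Clopper-Pearson intervals after thinning to 1000 UMIs. With 1 library per label these cover counting error only, and no p-value was computed. Calls used the size rule, in classes of at least 100 cells per library, and the rule's code was tested on simulated counts. The GC share is that of the last 500 nucleotides of a gene's transcript in GENCODE vM21, in 10 bins for the subtraction, and to that annotation 31107 of the 31253 features matched. Sequences are from RefSeq. Named genes are the 5 subunits, the 5 genes most like each, and of each pathway list the 6 with the most UMIs and any called in microglia-like or macrophage-like cells, apart from 2 genes that are not reported here. Genes named in other classes or as yardsticks of stray RNA were chosen after their values were seen. The members and lists were chosen with earlier results of these data known, and the thresholds for naming clusters were revised after clusters were seen. Alternatives changed the mitochondrial limit, doublets, cluster resolution, gating, scaling (TMM of edgeR 4.0.16), weighting, minimum counts and depth.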

Additional observations from a re-analysis of the deposited data

Results flagged for a closer look

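For Cybb the sign of the log2 ratio, cKO label over flox label, differed between vessel classes with intervals on opposite sides of equality. It was 1.07 in pericyte or smooth muscle cell-like cells, on 49 UMIs in the library labelled cKO and 15 UMIs in the library labelled flox, and −0.73 in endothelial-like cells, on 54 and 64 UMIs. The difference between these classes was not tested. With equal weight per cell the values were −1.52 and 0.28, so both signs turned, and the summed microglia markers stood at 522 and 193 CPM in the pericyte-like cells and at 89.8 and 207 CPM in the endothelial-like cells.

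Within microglia-like cells the Cybb ratio was 0.78 (0.38 to 1.18) in the cluster led by Siglech, Slc2a5 and P2ry12, on 99 and 121 UMIs, and −0.43 (−0.54 to −0.32) in the cluster led by Mmp12, Cd5l and Lpl, on 1204 and 1428 UMIs. Clusters led by Gpr84, Gpr34 and Arsb, at 0.25, and by Ifit3, Ifit2 and Ifit3b, at 0.37, also lay above equality. With 1 library per label these differences were not tested. The Cybb levels of the Siglech cluster, 66.1 CPM in the library labelled cKO and 38.5 CPM in the library labelled flox, were near those of brain classes. The part of stray RNA in its ratio was not tested.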

How the results depend on the processing

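No paired analysis was possible because there is 1 library per label. With 1 library a side, intervals cover counting error only, and 65 of 298 and 82 of 201 neutrophil-like cells were too shallow for thinning. Of 40 pairs of a subunit and a class, not all of which reached the minimum counts, 6 were lower and 0 higher in the library labelled cKO. At 10 UMIs and no CPM minimum 10 were lower and 3 higher; every other alternative gave between 5 and 7 lower. For the other pathway genes the 8 pairs lower and 2 higher became 4 lower with TMM scaling and 1 lower after subtraction by GC. They became 14 lower and 6 higher at 10 UMIs with no CPM minimum, and 0 were higher with at most 10% mitochondrial UMIs or with each cell gated by its own markers. The 2 subunits whose lowest phagocyte class stood 4-fold above the highest other class in the library labelled flox became 0 when marked doublets were kept. Relative to the other compared classes the Cyba ratio turned to 0.0066 in border-associated macrophage-like and 0.0998 in neutrophil-like cells, by construction of a difference from the middle class. As measured, Cyba stayed between −2.14 and −1.73 in macrophage-like and between −2.09 and −1.54 in microglia-like cells, and Ncf1 between −0.86 and −0.78 in macrophage-like cells, under all alternatives other than that subtraction. Over all 5 subunits, Cyba and Ncf1 included, 328 ratios under alternatives stayed within the counting interval of the measured one and 52 did not. A further 2 turned in sign, the Cyba values relative to the other compared classes. Turned signs were counted apart only for ratios past the size rule. Others turned too and are counted among the 328 or the 52. With equal weight per cell, Cybb went from −0.12 to 0.22 in microglia-like cells and from −0.73 to 0.28 in endothelial-like cells. The phagocyte class with the highest level of each subunit did not change under any setting of the classes, while the lowest changed for Cybb and Ncf4. At 10% mitochondrial UMIs no pericyte-like class was formed. Leaving out low-UMI clusters was chosen after seeing the data. The cause was not tested.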
